A study of Mus musculus with 6 samples.

Results

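The lysyl hydroxylase genes Plod1, Plod2 and Plod3, the collagen galactosyltransferase genes Colgalt1 and Colgalt2, and the chaperone genes Serpinh1 and Fkbp10 were followed in mouse tibia, 7 genes chosen by name among 56748 gene identifiers. The 6 libraries came from female mice 12 weeks old, 3 labelled Col1a1+/-, heterozygous for the gene of the alpha 1 chain of type I collagen, and 3 labelled WT (wild type). The series presents the heterozygous mouse as a model of type I osteogenesis imperfecta, in which bones break easily, and its title also names an anti-TGF-β treatment, which no label of these 6 samples mentions. Marrow was flushed out, the frozen bone was ground whole, and polyadenylated RNA was sequenced. The labels say neither how the Col1a1 allele was made, nor the strain, nor whether each sample was 1 animal, so a p-value here reflects only how far these samples differ among themselves.

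All 7 genes act on collagen inside the endoplasmic reticulum (ER), before it is secreted. Lysyl hydroxylases add a hydroxyl group to lysines of the new chain, and galactosyltransferases attach a sugar to some of those hydroxylysines. Hydroxylated lysines outside the cell feed the cross-links that hold collagen fibrils together, in bone above all those formed from the short non-helical chain ends called telopeptides. Chaperones hold the folding triple helix or the enzymes that work on it, and in humans loss of PLOD2 or FKBP10 causes Bruck syndrome, with fragile bone and joint contractures, while loss of SERPINH1 causes a recessive osteogenesis imperfecta.

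The libraries held 26.8 to 32.4 M counted reads, and no 2 libraries of a genotype agreed within counting noise. Defining genes of bone cells were present: 7 of 8 osteocyte genes and all 11 osteoblast genes were tested. Col1a1 itself was at 61149, 52880 and 59598 counts per M counted reads (CPM, after TMM scaling) in Col1a1+/- against 36810, 61347 and 54799 in wild type, which overlap, so its level alone is no check of the genotype labels. Reads of Col1a1 per read of Col1a2, the partner chain, numbered 0.836, 0.775 and 0.823 in Col1a1+/- against 1.32, 1.25 and 1.27 in wild type and separated the libraries the way they are labelled, in a ratio chosen with its values known and given no test. A list of 17 skeletal muscle genes took 1.75%, 3.25% and 1.60% of counts in Col1a1+/- against 5.03%, 5.02% and 6.28% in wild type, with 16 of the 17 lower in every Col1a1+/- library. The share of all genes that separate in this direction was not counted. By edgeR 6 of the 17 were called lower, as were 2.91% of all tested genes. In RNA from ground bone, fewer cells of a type and less RNA per cell cannot be told apart. Osteoblast markers took 1.12%, 1.07% and 1.21% in Col1a1+/- against 0.510%, 0.624% and 0.512% in wild type. Of these 11 markers 7 were called higher, as were 1.43% of all tested genes (marker median log2 fold change 0.76, Col1a1+/- over wild type). Neutrophil markers set wild-type replicate 1 apart, at 0.548% of counts against 0.130% and 0.135% in the other wild-type libraries and 0.0916% to 0.151% in Col1a1+/-. The part of muscle, osteoblast or neutrophil RNA in the values of the 7 genes described next was not tested. With muscle RNA, or erythroid and neutrophil RNA, as a covariate none of the 7 was called by edgeR, as given with the other settings. Each covariate separated the genotypes in full, so genotype and covariate are hard to tell apart in those fits.

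Under TMM scaling, the level of every one of the 7 genes was higher in each Col1a1+/- library than in each wild-type library, and for 3 of them, Plod2, Fkbp10 and Colgalt2, the difference passed the test across all genes. Of 18514 genes tested, 4.34% passed (edgeR's quasi-likelihood test, adjusted p under 0.05), 1.43% higher and 2.91% lower in Col1a1+/-. The full separation of libraries seen in 7 of 7 genes held in the same direction for 14.0% of tested genes. The median log2 fold change was 0.74 over the 7 genes, Col1a1+/- over wild type, and -0.01 over all tested genes, of which 49.1% lay above 0. Under TMM none of the 7 was called lower by edgeR (0 genes), and 0 were by DESeq2 with its own size factors. By edgeR under TMM, 6 of the 7 had an unadjusted p under 0.05, as did 4228 of the 18514 genes tested. All 7 had passed the filter on low counts. With libraries scaled on osteocyte or osteoblast markers instead, 4 and 3 of the 7 log2 fold changes were above 0. None of the 7 was called higher under either, where 2 and 21 of the 18514 genes were.

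Promoter sequences are shown for Serpinh1 and Plod1, the pair whose levels ran most closely together across the 6 libraries among the members that have one in the RefSeq promoter table (4 of 7 members matched; Pearson r = 0.975 for this pair of genes that share libraries and scaling). Each runs from 250 bases before to 50 bases after the annotated start, 5′ to 3′ on the gene's strand, in build GRCm38.p6. The first lies on the minus strand at chr7:99353190-99353489 and the second on the minus strand at chr4:147936727-147937026. Capitals mark matches, on either strand, to the letters CCAAT (the CCAAT box), GGGCGG (a GC box), ACGTG (the core bound by hypoxia-inducible factors), CCACG (the end piece of the ER stress element), GAANNTTC (a heat shock element dimer) and TATAAA (the TATA box).
Serpinh1: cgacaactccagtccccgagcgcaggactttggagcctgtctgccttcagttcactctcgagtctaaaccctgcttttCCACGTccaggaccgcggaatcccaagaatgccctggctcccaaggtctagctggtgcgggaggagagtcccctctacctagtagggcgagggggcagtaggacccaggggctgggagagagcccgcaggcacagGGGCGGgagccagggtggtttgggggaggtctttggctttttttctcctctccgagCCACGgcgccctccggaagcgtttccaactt
Plod1: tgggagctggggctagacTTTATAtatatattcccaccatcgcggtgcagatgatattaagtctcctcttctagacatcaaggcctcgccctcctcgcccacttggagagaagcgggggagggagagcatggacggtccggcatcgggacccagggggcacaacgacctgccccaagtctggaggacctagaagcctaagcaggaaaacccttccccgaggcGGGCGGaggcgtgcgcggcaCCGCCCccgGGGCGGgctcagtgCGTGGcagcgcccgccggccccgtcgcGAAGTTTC
The Serpinh1 window held 2 CCACG matches, 1 of which overlaps its single ACGTG match, and 1 GC box. In the Plod1 window there were 3 GC boxes, 1 CCACG, 1 GAANNTTC and 1 TATAAA, this last on the opposite strand. Neither window held CCAAT. Among 32851 promoter windows of this length, 35.7% held GGGCGG, 32.8% CCACG, 19.6% ACGTG, 7.86% GAANNTTC, 13.6% TATAAA and 37.4% CCAAT. A match is a string of letters and not a measured binding site.

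Plod2 encodes lysyl hydroxylase 2, the enzyme that hydroxylates telopeptide lysines. The gene (ENSMUSG00000032374) lies on chromosome 9, 92424276 to 92490481, plus strand, in GRCm39, with 5392 bp of exon, 6.42% of it shared with Gm38391 on the other strand. Its level was 394, 384 and 401 CPM in the 3 Col1a1+/- libraries in replicate order, against 229, 264 and 212 CPM in the wild-type libraries. The Col1a1+/- libraries lay close together and all stood far above the highest wild-type library. The means were 393 ± 8.80 CPM in Col1a1+/-, against 235 ± 26.4 in wild type (SD, n = 3 each), and the log2 fold change was 0.74 (SE 0.12, edgeR adjusted p = 0.0249). Counts per gene cannot separate the long and short splice forms of Plod2.

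Plod1 encodes lysyl hydroxylase 1, which acts on lysines of the triple helix (ENSMUSG00000019055; chromosome 4, 147994210 to 148021224, minus strand, 6765 bp of exon). It stood at 159, 152 and 177 CPM in Col1a1+/- against 101, 145 and 118 CPM in wild type, so the groups did not overlap but wild-type replicate 2 came close to the lowest Col1a1+/- library. Means of 163 ± 13.1 CPM in Col1a1+/-, against 121 ± 22.2 in wild type (SD, n = 3 each) gave a log2 fold change of 0.43, which did not pass (SE 0.14, edgeR adjusted p = 0.121).
Plod3 encodes lysyl hydroxylase 3, which also adds glucose to galactosylated hydroxylysine (ENSMUSG00000004846; chromosome 5, 137015873 to 137025502, plus strand, 4519 bp of exon, 11.9% of it shared with Znhit1 on the other strand and the microRNA gene Mir702). Its levels were 95.1, 101 and 115 CPM in Col1a1+/- against 86.7, 87.5 and 79.2 CPM in wild type. No library crossed over, yet the gap between the groups was small, and the log2 fold change of 0.30 did not pass (SE 0.11, edgeR adjusted p = 0.146).

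Within a library, Plod2 stood higher relative to Plod3 in every Col1a1+/- sample. There were 4.14, 3.82 and 3.48 Plod2 reads per Plod3 read in the Col1a1+/- libraries, against 2.64, 3.02 and 2.68 in the wild-type ones, which do not overlap. Means were 3.81 ± 0.330 in Col1a1+/-, against 2.78 ± 0.206 in wild type, a 1.37-fold higher ratio on a geometric scale (SD, n = 3 each; exact two-sided permutation p = 0.1, the smallest that 3 against 3 can give). For Plod2 to Plod1 the fold of the ratio was 1.24, with 2.48, 2.52 and 2.26 in Col1a1+/- against 2.28, 1.83 and 1.80 in wild type. There the groups overlapped, because wild-type replicate 1 lay above Col1a1+/- replicate 3 (exact p = 0.2). Such ratios do not depend on how libraries are scaled. Of 21 ratios computed, 7 had no overlap between groups, and the smallest Benjamini-Hochberg adjusted value was 0.3, so none passed.

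The galactosyltransferase genes differed in level and in spread. Colgalt1 encodes an enzyme that attaches galactose to hydroxylysine, and its transcript was the more abundant of the pair (ENSMUSG00000034807; chromosome 8, 72063642 to 72077555, plus strand, 4326 bp of exon, 11.4% of it shared with Unc13a on the other strand). It had 112, 108 and 138 CPM in Col1a1+/- against 98.4, 102 and 100.04 CPM in wild type. The wild-type libraries were almost level, and the lowest Col1a1+/- library was only just above them. The log2 fold change of 0.25 was the smallest of the 7 and did not pass (SE 0.12, edgeR adjusted p = 0.238).

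Colgalt2 encodes a second enzyme of the same activity (ENSMUSG00000032649; chromosome 1, 152275581 to 152386446, plus strand, 4245 bp of exon). Its levels were 35.0, 29.0 and 16.5 CPM in Col1a1+/- against 13.1, 11.2 and 11.5 CPM in wild type. Col1a1+/- replicates 1 and 2 were high and replicate 3 lay nearer to the wild-type libraries. The means were 26.8 ± 9.46 CPM in Col1a1+/-, against 11.9 ± 1.04 in wild type (SD, n = 3 each), and the log2 fold change of 1.17 was the largest of the 7 genes (SE 0.25, edgeR adjusted p = 0.0464). As a ratio to Colgalt1, Colgalt2 stood at 0.313, 0.268 and 0.120 in Col1a1+/- against 0.134, 0.110 and 0.115 in wild type, so Col1a1+/- replicate 3 fell within the wild-type range (fold of the ratio 1.81, exact p = 0.2).

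Cartilage genes, too, had Col1a1+/- replicate 3 as the lowest Col1a1+/- library, and their part in the Colgalt2 values was not tested. A list of 8 chondrocyte markers took 0.131%, 0.108% and 0.0578% of counts in Col1a1+/- against 0.0393%, 0.0285% and 0.0228% in wild type. All 8 had a log2 fold change above 0 (median 1.46), 5 were higher in every Col1a1+/- library, and Acan, Sox9 and Ihh were called higher. Of all tested genes 49.1% lay above 0, 14.0% were higher in every Col1a1+/- library and 1.43% were called higher. Acan, which encodes the cartilage proteoglycan aggrecan, had 225, 253 and 158 CPM in Col1a1+/- against 75.6, 91.5 and 60.3 CPM in wild type. Set against Acan, Colgalt2 was at 0.156, 0.114 and 0.104 reads per read in Col1a1+/-, against 0.174, 0.123 and 0.190 in wild type, which overlap. Against the cartilage collagen gene Col2a1 its ratio was 0.904 times the wild-type one, also with overlap. Its ratio to Cytl1, another cartilage gene, was lower in every Col1a1+/- library (0.652 times). These 3 ratios were chosen after values were seen and carry no test.

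Serpinh1 encodes HSP47, the collagen-specific chaperone, and was the most abundant of the 7 transcripts. The gene (ENSMUSG00000070436) lies on chromosome 7, 98994583 to 99002446, minus strand, with 2443 bp of exon shared with no other annotated gene. It reached 2072, 1884 and 2383 CPM in Col1a1+/- against 919, 1441 and 1273 CPM in wild type. All Col1a1+/- libraries were above all wild-type libraries, and wild-type replicate 1 was the lowest by a wide margin. Means of 2113 ± 252 CPM in Col1a1+/-, against 1211 ± 266 in wild type (SD, n = 3 each) gave a log2 fold change of 0.80, which missed the threshold (SE 0.21, edgeR adjusted p = 0.0608). It passed by DESeq2 (adjusted p = 0.000456), and by edgeR without wild-type replicate 1 (adjusted p = 0.0327, log2 fold change 0.67).

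Fkbp10 encodes FKBP65, an ER prolyl isomerase that binds collagen and supports lysyl hydroxylase 2 (ENSMUSG00000001555; chromosome 11, 100306523 to 100315650, plus strand, 2935 bp of exon, 6.58% of it shared with Nt5c3b on the other strand). Its levels were 520.5, 458 and 535 CPM in Col1a1+/- against 222, 317 and 277 CPM in wild type. Every Col1a1+/- library was clear of the wild-type range. The means were 505 ± 40.9 CPM in Col1a1+/-, against 272 ± 48.0 in wild type (SD, n = 3 each), and the log2 fold change was 0.89 (SE 0.16, edgeR adjusted p = 0.0276). Fkbp10 and Plod2, its partner, differed by similar folds: the ratio of Fkbp10 to Plod2 was 1.32, 1.19 and 1.33 in Col1a1+/- against 0.967, 1.201 and 1.30 in wild type (exact p = 0.3). Serpinh1 per Fkbp10 read was likewise within overlapping ranges, at 3.98 to 4.45 in Col1a1+/- against 4.15 to 4.60 in wild type.

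**Figure D1:**
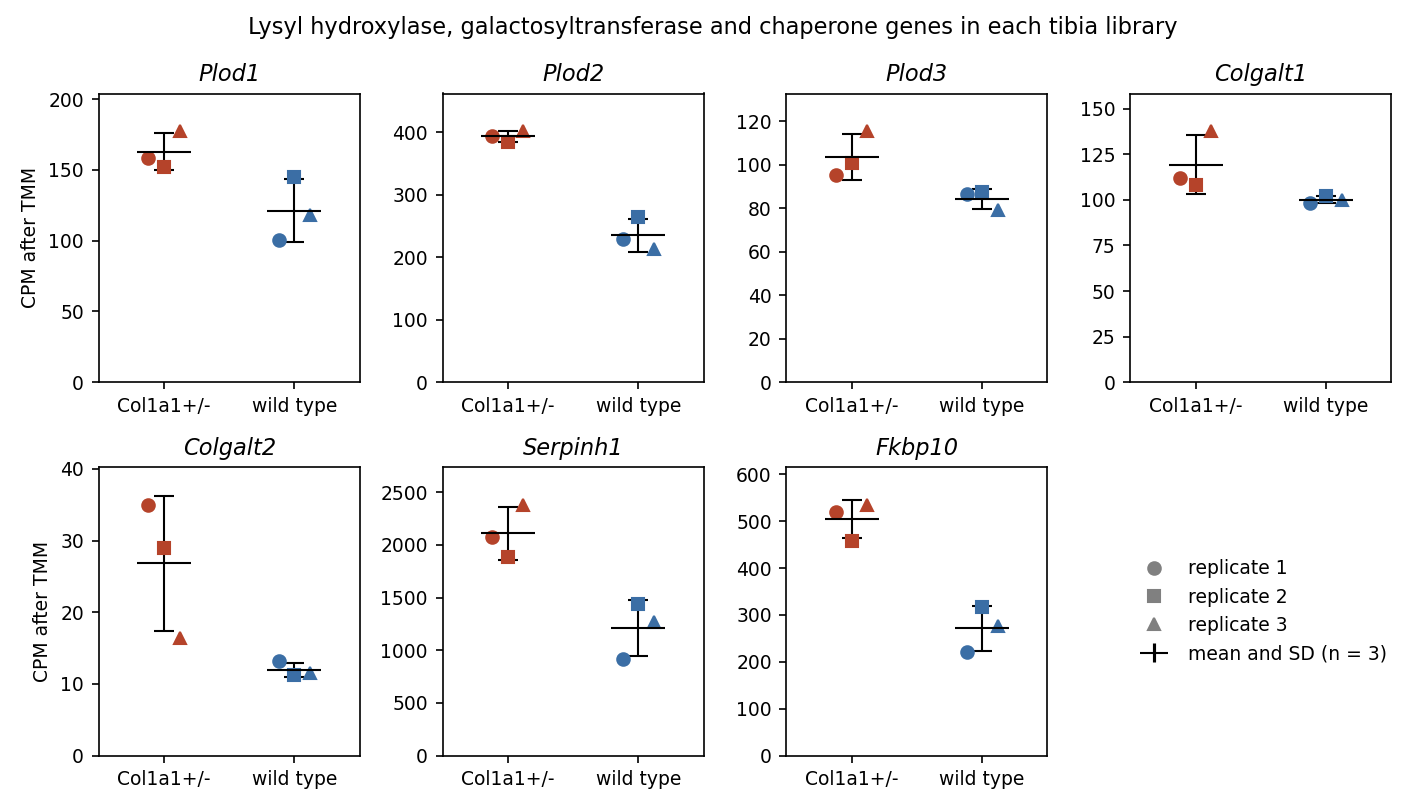
Level of each gene by library, as CPM after TMM scaling on linear axes that start at 0, with Col1a1+/- on the left and wild type on the right of each panel; symbols give the replicate and bars the mean and SD (n = 3). Groups do not overlap in any of the 7 panels, the gap relative to the level is widest for Plod2 and Fkbp10, and Col1a1+/- replicate 3 of Colgalt2 lies near the wild-type libraries.

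Most single libraries, when left out, ended the 3 calls. Each of these fits had 1 library fewer, which by itself makes a call harder to reach, and its part in the lost calls was not tested. Plod2 and Fkbp10 kept theirs without wild-type replicate 1 (adjusted p = 0.0126 for Plod2 and 0.0116 for Fkbp10 by edgeR) and without Col1a1+/- replicate 2 (0.0295 for Plod2 and 0.0245 for Fkbp10). Leaving out any of the other 4 libraries ended both calls, with edgeR adjusted p for Plod2 of 0.126 without Col1a1+/- replicate 1, 0.0868 without Col1a1+/- replicate 3, 0.0633 without wild-type replicate 2 and 0.0985 without wild-type replicate 3. Fkbp10, in that order, had edgeR adjusted p of 0.129, 0.0942, 0.0633 and 0.0968. Colgalt2 kept its call only without Col1a1+/- replicate 3 (edgeR adjusted p = 0.0315, log2 fold change 1.44), and its log2 fold change was lowest, 0.94, without Col1a1+/- replicate 1. The fold changes moved less than the calls: 0.67 to 0.83 for Plod2 and 0.79 to 1.02 for Fkbp10, on the log2 scale. Across all genes, 0 were called by edgeR without Col1a1+/- replicate 1 or without wild-type replicate 3 (3275 and 3239 at an unadjusted p under 0.05), 8 without wild-type replicate 2, and 1766 without wild-type replicate 1.

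How the libraries were scaled changed the direction for 4 of the 7 genes. Under TMM, under RLE size factors and under library totals all 7 log2 fold changes were above 0, and with library totals Plod1 (adjusted p = 0.0494) and Serpinh1 (adjusted p = 0.0213) were also called higher by edgeR. Scaling on osteocyte markers moved the median of all genes to -0.76, and scaling on osteoblast markers to -0.77. Plod1, Plod3 and Colgalt1 then fell below 0 under both, Plod2 was at 0.02 under the osteocyte and -0.02 under the osteoblast scaling, and Colgalt2, Fkbp10 and Serpinh1 stayed above 0. Relative to the median of all genes, the median of the 7 was 0.75 under TMM, 0.77 under the osteocyte and 0.76 under the osteoblast scaling. A change of scaling shifts all genes by nearly the same amount. Such differences therefore stay alike by construction and are no separate support. Colgalt1 was called lower under the osteoblast scaling (log2 fold change -0.51, edgeR adjusted p = 0.0495), as were 10763 of the 18514 genes tested. With muscle RNA as a covariate no gene of all those tested passed by edgeR (0 genes, 1084 at an unadjusted p under 0.05), the median of the 7 was 0.57, and Colgalt1 turned to -0.07. With erythroid and neutrophil RNA as a covariate that median was 0.43, and 0 of the 7 genes passed by edgeR. In that fit 3 of the 7 had an unadjusted p under 0.05, as did 3246 of the 18514 genes tested. Colgalt2 was at 1.67 with the muscle covariate and 1.64 with the other. Both covariates, means of marker log2 CPM, separated the genotypes. Muscle stood at 6.46 to 8.25 in Col1a1+/- against 9.29 to 10.4 in wild type. Erythroid and neutrophil RNA stood at 7.31 to 7.68 in Col1a1+/- against 7.70 to 8.27 in wild type. Genotype and covariate are hard to tell apart in such fits, so the lost calls decide nothing about the genes.

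**Figure D2:**
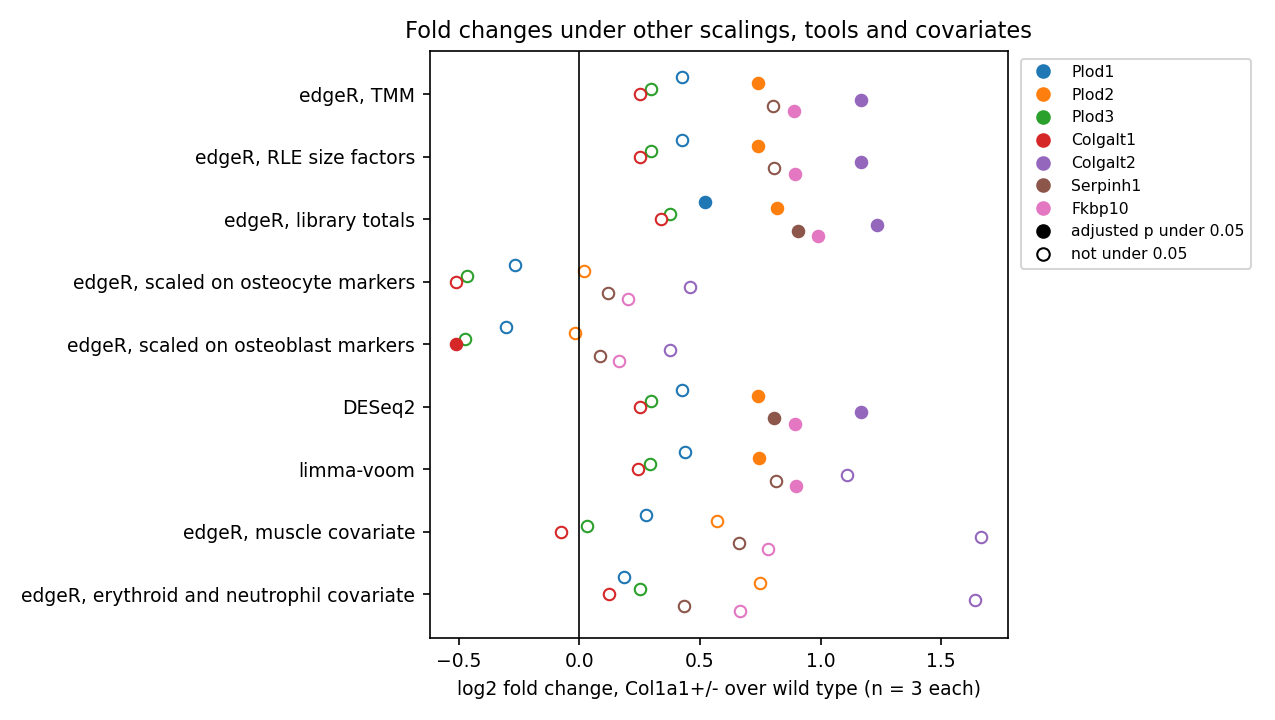
Log2 fold change of each gene, Col1a1+/- over wild type, on the x axis under 9 ways of scaling, testing or adjusting (rows; n = 3 each); filled points have an adjusted p under 0.05. All 7 lie above 0 under TMM, RLE, library totals, DESeq2, limma-voom and the erythroid and neutrophil covariate, Plod1, Plod3 and Colgalt1 lie below 0 on both bone-marker scalings with Plod2 also below on the osteoblast one, and Colgalt1 is at -0.07 with the muscle covariate.

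Type I collagen is the main client of these enzymes in bone. Col1a1 averaged 57876 ± 4395 CPM in Col1a1+/-, against 50985 ± 12705 in wild type (SD, n = 3 each), with overlapping libraries (log2 fold change 0.18, edgeR adjusted p = 0.780). Col1a2, the gene of the alpha 2 chain, averaged 71246 ± 2666 CPM in Col1a1+/-, against 40038 ± 10928 in wild type, without overlap but short of the threshold (log2 fold change 0.83, edgeR adjusted p = 0.159).

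Relative to Col1a1, the chaperones and Plod2 were higher in every Col1a1+/- library. Serpinh1 had 33.9, 35.6 and 40.0 reads per 1000 Col1a1 reads in Col1a1+/- against 25.0, 23.5 and 23.2 in wild type, a ratio 1.52 times as high on a geometric scale. Fkbp10 had 8.51, 8.66 and 8.98 per 1000 in Col1a1+/- against 6.02, 5.17 and 5.05 in wild type (1.61 times). Plod2 had 6.44, 7.26 and 6.74 per 1000 in Col1a1+/- against 6.23, 4.31 and 3.88 in wild type (1.45 times), and here wild-type replicate 1 came within reach of the Col1a1+/- libraries. Each of the 3 separated the groups (exact p = 0.1, adjusted 0.3). For Plod1, Plod3, Colgalt1 and Colgalt2 the groups overlapped, with folds of the ratio of 1.17, 1.06, 1.02 and 1.85.

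Relative to Col1a2, whose ratio to Col1a1 itself differed between the groups, none of the 7 was higher in every Col1a1+/- library. Plod1, Plod3 and Colgalt1 were lower in every Col1a1+/- library, at 0.741, 0.670 and 0.647 times the wild-type ratio (exact p = 0.1 each, adjusted 0.3). Colgalt1, for example, had 1.53, 1.59 and 1.90 reads per 1000 Col1a2 reads in Col1a1+/- against 3.53, 2.08 and 2.32 in wild type. Serpinh1, Fkbp10, Plod2 and Colgalt2 overlapped between the groups, with folds of 0.966, 1.02, 0.917 and 1.17. Wild-type replicate 1 had the highest ratio to Col1a2 of the wild-type libraries for each of the 7 genes. Without it the fold was 1.07 for Plod2 and 1.45 for Colgalt2, and 0.802, 0.802 and 0.758 for Plod1, Plod3 and Colgalt1.

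**Figure D3:**
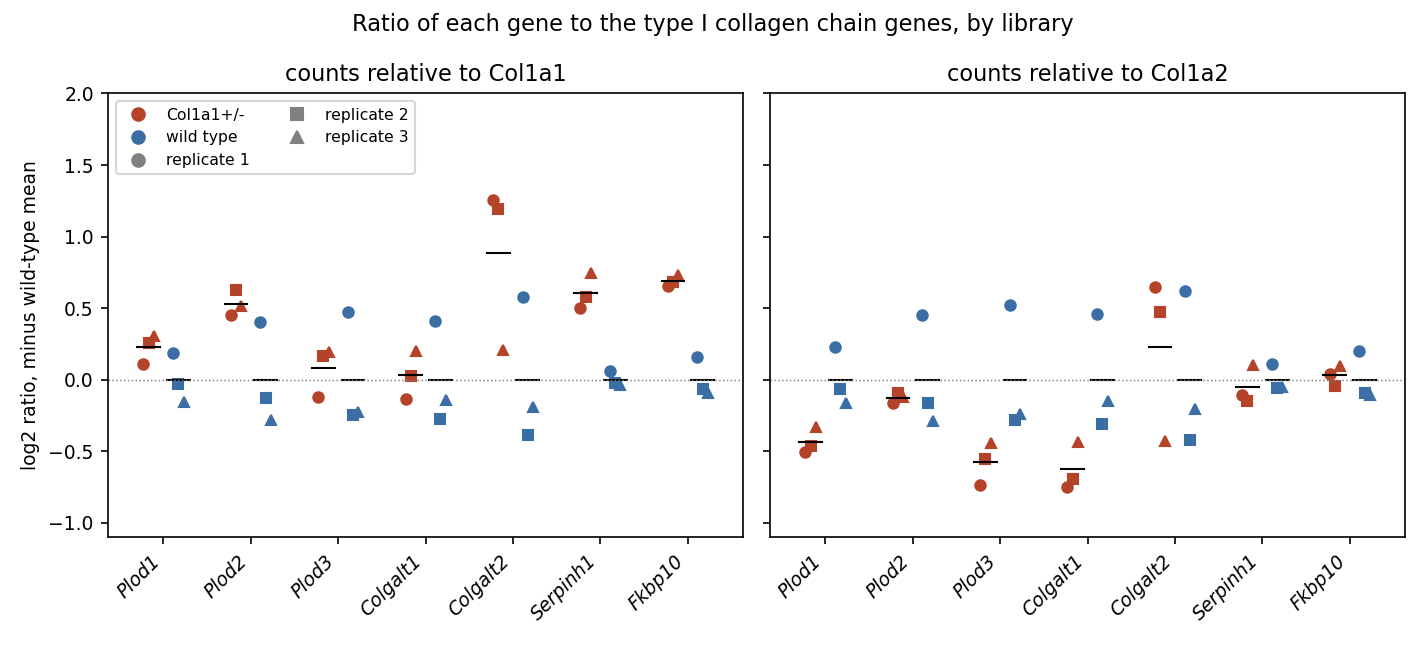
Log2 ratio of each gene's counts to Col1a1 (left) and to Col1a2 (right) in every library, minus the wild-type mean of that ratio; symbols give the replicate, colours the genotype and short lines the group means. Plod2, Serpinh1 and Fkbp10 separate upward against Col1a1, Plod1, Plod3 and Colgalt1 separate downward against Col1a2, and wild-type replicate 1 is the highest wild-type point in every column.

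Per kilobase of exon, the order of levels was Serpinh1, Fkbp10, Plod2, Colgalt1, Plod1, Plod3 and Colgalt2. Serpinh1 stood at 865 ± 103 CPM per kb in Col1a1+/-, against 496 ± 109 in wild type (SD, n = 3 each), which was 5.03 and 5.35 times the Fkbp10 level in those groups. Fkbp10 followed at 172 ± 13.9 CPM per kb in Col1a1+/-, against 92.7 ± 16.4 in wild type, and Plod2 at 72.9 ± 1.63 in Col1a1+/-, against 43.6 ± 4.89 in wild type. Colgalt1, Plod1 and Plod3 formed a middle group, at 27.6 ± 3.71, 24.1 ± 1.93 and 23.0 ± 2.33 CPM per kb in Col1a1+/-, against 23.2 ± 0.418, 17.9 ± 3.28 and 18.7 ± 1.02 in wild type. Library ranges of Plod1 and Plod3 overlapped in both genotypes, and those of Colgalt1 and Plod1 in Col1a1+/-, so their order is not settled beyond the spread. Colgalt2 was lowest, at 6.32 ± 2.23 CPM per kb in Col1a1+/-, against 2.81 ± 0.246 in wild type. The other neighbours in the order had no overlap in either genotype.

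The products that work beside lysyl hydroxylases were described through lists chosen by function. P3h3, P3h4 and Ppib, which in mice form a complex with lysyl hydroxylase 1, all rose under TMM. Of these and Tmem38b together, 2 lay above 0 under the osteocyte scaling and 1 under the osteoblast scaling, with 0 called higher under either. P3h4 had 127, 120 and 128 CPM in Col1a1+/- against 47.7, 76.9 and 71.1 CPM in wild type (log2 fold change 0.94, SE 0.17, edgeR adjusted p = 0.0286). The log2 fold change was 0.72 for P3h3 (edgeR adjusted p = 0.0246) and 0.64 for Ppib, which encodes cyclophilin B and shares 25.0% of its exon length with Snx22 on the other strand (edgeR adjusted p = 0.0329). Tmem38b went the other way. It encodes an ER cation channel whose loss in humans alters collagen lysine hydroxylation, and it had 29.3, 32.8 and 26.7 CPM in Col1a1+/- against 47.3 to 51.7 CPM in the 3 wild-type libraries. The groups are far apart, and the log2 fold change was -0.75 (SE 0.11, edgeR adjusted p = 0.0216).

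The lists of other collagen-modifying genes, of KDEL receptors and of collagen chains had genes called higher, as were 1.43% of all tested genes. None of their genes was called lower, but only 2.91% of all tested genes were, so this says little for lists this short. Of 7 prolyl hydroxylase genes 3 rose, Crtap (log2 fold change 0.82), P3h1 (0.85) and P4ha1 (0.67), with a list median of 0.64. Crtap and P3h1 encode partners in the complex that 3-hydroxylates collagen prolines, and P4ha1 a catalytic subunit of prolyl 4-hydroxylase. Of 5 further ER FKBP isomerase genes, the family of Fkbp10, Fkbp14 (0.65) and Fkbp9 (0.73) rose, and the median was 0.69. Among 5 lysyl oxidase genes, whose enzymes start the cross-links from lysines and hydroxylysines, Loxl4 (0.98), Lox (0.80) and Loxl3 (0.66) rose, with a median of 0.66. Lox had 814, 793 and 856 CPM in Col1a1+/- against 434, 543 and 440 CPM in wild type, with no overlap. Of 3 KDEL receptor genes, whose products return ER proteins from the Golgi, Kdelr2 rose (0.50, edgeR adjusted p = 0.0458) and Kdelr3 had 0.58 (edgeR adjusted p = 0.0547). Among 15 collagen chain genes 4 rose, including Col10a1 of hypertrophic cartilage (2.14) and Col5a1 (0.82), and the list median was 0.82.

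Lists of general folding and stress genes had lower medians. For their counts of calls, 1.43% of all tested genes were called higher and 2.91% lower. Of 13 general ER chaperone genes 2 rose, Manf (log2 fold change 0.63, edgeR adjusted p = 0.0238) and Pdia4 (0.67, edgeR adjusted p = 0.0458), with a list median of 0.38. Under TMM all 13 lay above 0, and 9 were higher in every Col1a1+/- library than in every wild-type library, as 14.0% of all tested genes were. Among 10 cytosolic heat shock genes, chosen because Serpinh1 is itself a heat shock gene, 1 passed, and this gene, Hsph1, fell (-0.69, edgeR adjusted p = 0.0279). Their median was -0.26, and Dnajb1 (0.20), Hspa1b (0.46) and Bag3 (-0.61) did not pass. Of 10 hypoxia response genes, chosen because Plod2 is a known target of hypoxia-inducible factors, 2 passed, and these, Egln1 (-0.96, edgeR adjusted p = 0.0333) and Pdk1 (-0.59, edgeR adjusted p = 0.0419), fell. The hypoxia median was -0.44, with Ndrg1 at 0.19 and Adm at 0.36, neither past the test. Egln1 and Pdk1 were lowest in Col1a1+/- replicate 3 and highest in wild-type replicate 3, as the share of muscle RNA was. Hsph1 was highest in that wild-type library too, but lowest in Col1a1+/- replicate 1. The part of muscle RNA in the heat shock and hypoxia values was not tested, nor were the differences between these lists.

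The direction of these lists turned with the scaling much as that of the 7 genes did. Scaled on osteocyte markers, the medians were -0.04 for the lysyl hydroxylase partners, -0.05 for prolyl hydroxylases, -0.01 for ER FKBP isomerases, -0.03 for lysyl oxidases, -0.24 for KDEL receptors and -0.41 for general ER chaperones. Collagen chains stayed above 0, at 0.08 under the osteocyte and 0.09 under the osteoblast scaling. Relative to the median of all genes, the osteocyte scaling gave 0.72 for the partners, 0.70 for prolyl hydroxylases, 0.75 for ER FKBP isomerases, 0.73 for lysyl oxidases, 0.52 for KDEL receptors and 0.34 for general ER chaperones, against 0.69, 0.65, 0.70, 0.66, 0.51 and 0.39 under TMM. The medians of the heat shock and hypoxia lists were below the median of all genes under both bone-marker scalings, at -0.23 and -0.43 relative to it under the osteocyte one. Values relative to that median stay nearly alike under any scaling by construction, so their likeness is no separate support. Tmem38b was the 1 partner called lower under every scaling tried.

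**Figure D4:**
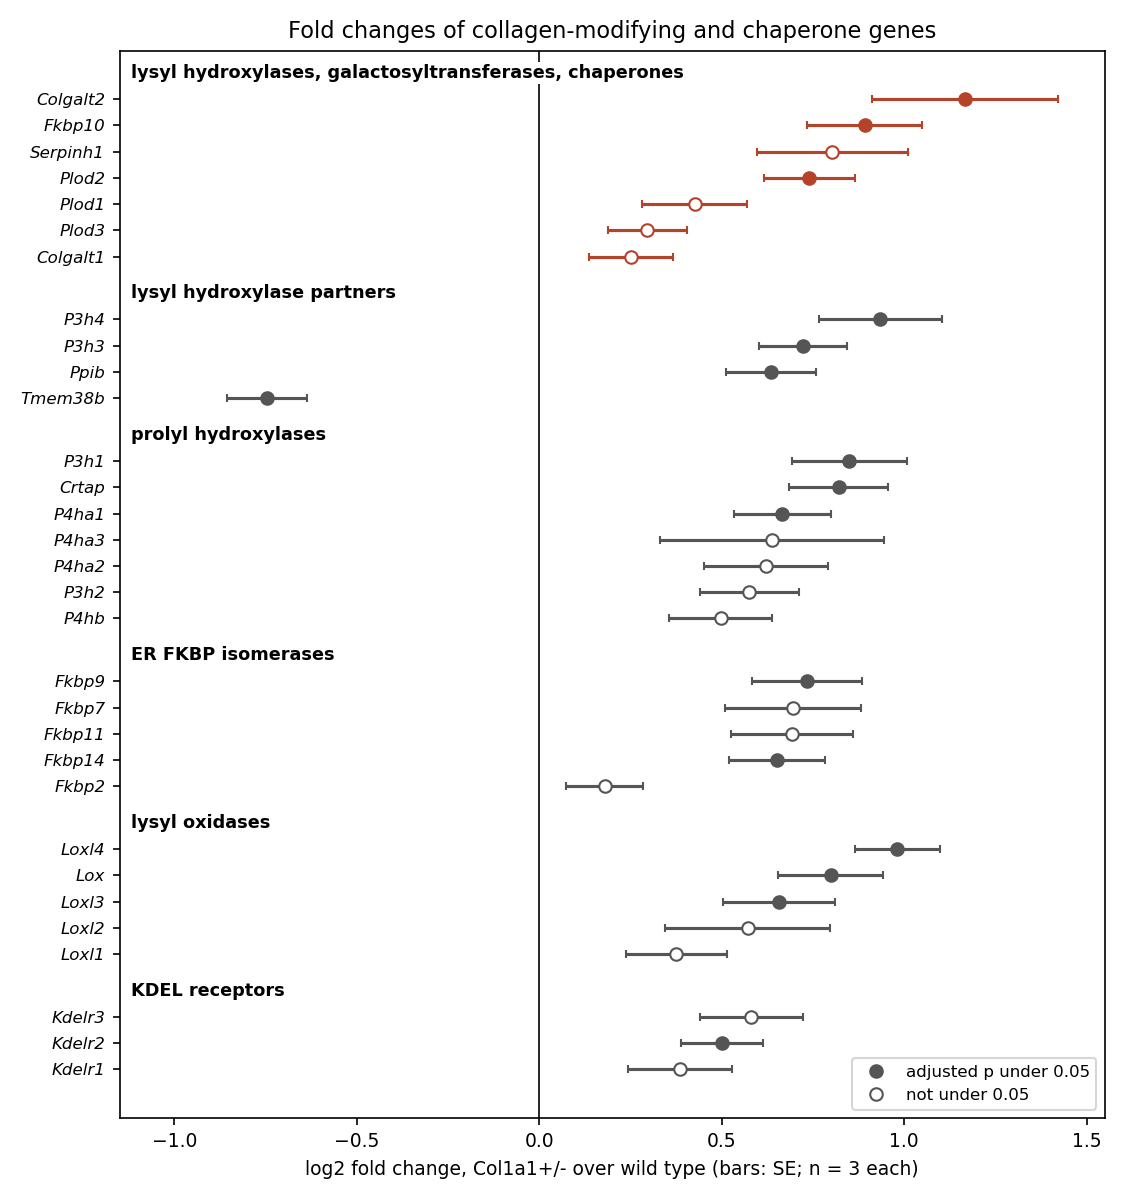
Log2 fold change, Col1a1+/- over wild type under TMM, with SE bars (n = 3 each) for the 7 genes in red and for 5 lists of related genes in grey; filled points have an edgeR adjusted p under 0.05. Every gene but Tmem38b lies to the right of 0 under this scaling, and among the red points Colgalt2, Fkbp10 and Plod2 are filled; when libraries are scaled on bone-cell markers, Plod1, Plod3, Colgalt1 and the medians of all 5 grey lists lie below 0.

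Across the 6 libraries the 7 genes varied together to different degrees. Pearson r between log2 CPM values ran from 0.311 for Colgalt1 with Colgalt2 to 0.987 for Fkbp10 with Serpinh1 over 21 pairs, with a median of 0.804. These points share libraries, scaling and the genotype difference, so the values describe likeness only. Of 9903 genes with a symbol and a mean of at least 10 CPM, the most like Plod2 were Pja1 (r = 0.995) and Lox (0.995), and the most like Fkbp10 were Slc22a17 (0.999) and Bmp1 (0.998). Serpinh1 ran closest to Sec31a and Fgfr1 (0.999 each), Plod1 to Chst14 (0.997) and Etv5 (0.996), and Plod3 to Bcl2l11 and Tmem260 (0.995 each). For Colgalt1 they were Eif2ak3 (0.998) and Yes1 (0.996).

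Colgalt2 ran closest to Chad (r = 0.993) and Clec3a (0.991), which encode the cartilage proteins chondroadherin and C-type lectin domain family 3 member A. Chad had 881, 791 and 346 CPM in Col1a1+/- against 297, 211 and 248 CPM in wild type, and Clec3a had 175, 153 and 56.4 CPM in Col1a1+/- against 35.2, 27.3 and 22.3 CPM in wild type. In both, as in Colgalt2, Col1a1+/- replicate 3 was the lowest of its group and still above the wild-type range. The log2 fold change was 1.42 for Chad (edgeR adjusted p = 0.0602) and 2.18 for Clec3a (edgeR adjusted p = 0.0481).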

How the data were processed

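Whole-tibia RNA of 3 Col1a1+/- and 3 wild-type samples was analysed. The authors deposited raw read counts per gene, 1 table per library, made with featureCounts 2.0.3 over exons of Ensembl release 107 on GRCm39 without regard to strand, per the file headers. The submitters' processing notes name Trimmomatic 0.39, HISAT2 2.2.1 and SAMtools 1.20, with no order. Strands are not separated. Both mates of a pair count as reads under the recorded command (61.8% to 64.2% of counts from 1 to 20 were even numbers), so reads are not independent molecules. Symbols matched 52073 of 56748 identifiers, and exon lengths are those deposited with the counts.

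Genes passing filterByExpr (18514, 99.87% to 99.90% of counts) were scaled by TMM (factors 0.892 to 1.10) and compared by edgeR 4.0.16 in R 4.3.3 (quasi-likelihood F test, robust, two-sided, Benjamini-Hochberg over all genes tested, threshold 0.05). DESeq2 1.42.0, limma 3.58.1 (voom), other scalings, filters, covariates, a replicate block and leaving out each library were alternatives. The script was tested on simulated data. Ratios used counts within a library and an exact permutation test. The 7 genes and all lists were chosen with earlier results of these data known. Named genes are the 7, Col1a1, Col1a2, of each list the genes with the 2 smallest p either way, and the 2 genes most correlated with each of the 7. Ppib, P4ha1, Loxl3, Acan, Sox9, Ihh, Col2a1 and Cytl1 were named after their values were seen. Correlations used log2 CPM with a prior count of 2. The remaining marker lists had no gene called: osteocyte (median log2 fold change 0.52), osteoclast (0.50), erythroid (0.07), adipocyte (0.09), endothelial (0.04), fibroblast (0.19), tendon (-0.50), B lymphoid (-0.40) and neutrophil (-1.31). The skeletal muscle median was -1.59, with 6 genes called lower.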

Additional observations from a re-analysis of the deposited data

How the results depend on the processing

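Of 18514 genes, 803 were called, against 1327 with library totals, 2158 and 10784 with osteocyte and osteoblast scaling, 1472 with no filter, 2256 by DESeq2, 0 with a muscle covariate (1084 at an unadjusted p under 0.05), 20 with an erythroid and neutrophil covariate, and 0 to 1766 without 1 library. Of the 7 genes, 3 were called higher, against 5 with library totals, 4 with no filter or by DESeq2, 2 by limma-voom (Colgalt2 adjusted p = 0.0586), 0 under each bone-marker scaling and each covariate, and 0 to 3 without 1 library. Called lower were 0, and 1 under osteoblast scaling, where 10763 of all genes were. RLE, a 1 CPM filter and no robust estimation kept all 3 calls. The osteocyte scaling gave log2 fold changes of -0.27 for Plod1, -0.47 for Plod3 and -0.51 for Colgalt1, and the osteoblast scaling -0.30, -0.018, -0.47 and -0.51 for Plod1, Plod2, Plod3 and Colgalt1, with a median of -0.018. The muscle covariate gave -0.074 for Colgalt1. Ratios whose groups did not overlap numbered 7, and 7 to 16 without 1 library (12 without Col1a1+/- replicate 3, 16 without wild-type replicate 1, and 7 or 8 without any of the others). Full separation is easier to reach with 1 library fewer, so these counts are not like for like, and the cause was not tested. The labels do not say whether equal numbers pair the samples. Same-numbered samples correlated at 0.11, 0.04 and -0.12 in their deviations from group means, within the range of differently numbered ones (-0.20 to 0.19). Such values do not settle whether samples were paired. With a replicate block 126 genes and 0 of the 7 were called, the lowest adjusted p of the 7 being 0.0583 by edgeR. Counting error was not set against the spread gene by gene.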
